A study of Homo sapiens with 18 samples.

Results

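The anti-YTHDF1 peaks of A549 cells in which ARID1A was knocked down by siRNA (siARID1A) were set directly against the anti-YTHDF1 peaks of YTHDF1-knockout A549 cells (YTHDF1-KO). A549 is an established human lung cancer cell line. The comparison used 4 of the 18 samples of the series, 2 siARID1A lists and 2 YTHDF1-KO lists, and no wild-type sample entered it. Wild-type (WT) anti-YTHDF1 lists, and anti-ARID1A lists of siARID1A and YTHDF1-KO cells, were only set beside its results. Peaks of the 4 compared lists on chromosomes 1 to 22 and X were merged into 123228 regions. A region counted as held by a list where the 2 shared at least 1 bp. Of these regions, 5318 (4.32%) were held by both siARID1A lists and neither YTHDF1-KO list, and 1998 (1.62%) by both YTHDF1-KO lists and neither siARID1A list. All cells were kept in the same medium. The 2 conditions differ in both perturbations at once: the siARID1A cells are not described as lacking YTHDF1, and the YTHDF1-KO cells are not described as treated with siRNA. The labels give neither the siRNA sequence, its duration and its control, nor the number of knockout clones, nor whether replicates were separate cultures. A p-value therefore measures only the spread between these libraries, which may be technical.

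CUT&Tag uses an antibody bound in chromatin to direct a transposase that places sequencing adapters in the DNA nearby. YTHDF1 is a reader of N6-methyladenosine (m6A) in RNA and is known mainly from the cytoplasm, where it binds methylated transcripts. ARID1A is a large subunit of the canonical BAF form of the SWI/SNF complex, which moves nucleosomes at promoters and enhancers. The antibody's target is the gene knocked out in the YTHDF1-KO cells, and their lists still held 50774 and 46225 peaks. The IgG samples of the series were not analysed here, and the sources used here do not say whether IgG set the background of these calls.

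The promoters shown here belong to genes whose starts carried a peak in both lists of a condition, with no peak there in the lists of the other. They are those of the 10 strongest starts of each direction, described further on, that also lay in a merged region of the same condition only and kept the call with wider windows: ZMYM2, SPAST and ANO7 for siARID1A, and STRIP2 and PTPRM for YTHDF1-KO. ARID1A is added as the knocked-down gene; its start was called in siARID1A lists only, and the call was lost with windows of 3 kb. Each runs from 250 bases before to 50 bases after the RefSeq start (GRCh38.p14), 5′ to 3′ on the plus strand, which is the strand of all 6 genes, and capitals mark GC boxes (GGGCGG) and CCAAT boxes (CCAAT) on either strand. The windows are chr13:19958477-19958776 for ZMYM2, chr2:32063306-32063605 for SPAST, chr2:241188427-241188726 for ANO7, chr1:26695765-26696064 for ARID1A, chr7:129434182-129434481 for STRIP2 and chr18:7567066-7567365 for PTPRM. They held 37, 35, 8, 33, 27 and 50 CpG dinucleotides in that order, so that ANO7 stands out as poor in CpG.
ZMYM2: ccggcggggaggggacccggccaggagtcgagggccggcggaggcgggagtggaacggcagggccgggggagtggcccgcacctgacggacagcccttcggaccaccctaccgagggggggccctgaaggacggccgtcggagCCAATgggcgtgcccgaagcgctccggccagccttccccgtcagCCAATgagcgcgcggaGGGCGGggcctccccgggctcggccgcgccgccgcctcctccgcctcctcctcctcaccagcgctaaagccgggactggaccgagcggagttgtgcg
SPAST: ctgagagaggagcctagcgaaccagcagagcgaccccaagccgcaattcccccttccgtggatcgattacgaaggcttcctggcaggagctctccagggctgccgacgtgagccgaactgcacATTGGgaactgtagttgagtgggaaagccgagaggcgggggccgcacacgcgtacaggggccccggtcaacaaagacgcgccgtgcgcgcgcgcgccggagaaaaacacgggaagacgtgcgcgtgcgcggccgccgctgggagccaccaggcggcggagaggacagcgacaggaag
ANO7: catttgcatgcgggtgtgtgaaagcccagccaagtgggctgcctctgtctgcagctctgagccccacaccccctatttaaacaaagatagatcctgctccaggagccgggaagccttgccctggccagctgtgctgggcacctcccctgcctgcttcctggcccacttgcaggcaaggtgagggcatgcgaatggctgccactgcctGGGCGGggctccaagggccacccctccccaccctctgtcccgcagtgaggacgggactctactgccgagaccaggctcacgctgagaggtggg
ARID1A: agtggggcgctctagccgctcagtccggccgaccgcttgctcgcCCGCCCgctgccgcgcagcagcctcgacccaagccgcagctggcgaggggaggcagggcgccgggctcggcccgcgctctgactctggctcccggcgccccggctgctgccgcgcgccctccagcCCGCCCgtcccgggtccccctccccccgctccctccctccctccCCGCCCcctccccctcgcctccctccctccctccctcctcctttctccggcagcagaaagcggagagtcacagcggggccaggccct
STRIP2: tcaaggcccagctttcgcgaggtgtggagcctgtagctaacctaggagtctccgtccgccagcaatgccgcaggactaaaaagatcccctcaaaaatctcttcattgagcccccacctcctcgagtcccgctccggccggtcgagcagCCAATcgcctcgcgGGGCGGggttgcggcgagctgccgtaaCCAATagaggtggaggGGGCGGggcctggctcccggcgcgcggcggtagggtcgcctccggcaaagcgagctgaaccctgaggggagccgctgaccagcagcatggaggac
PTPRM: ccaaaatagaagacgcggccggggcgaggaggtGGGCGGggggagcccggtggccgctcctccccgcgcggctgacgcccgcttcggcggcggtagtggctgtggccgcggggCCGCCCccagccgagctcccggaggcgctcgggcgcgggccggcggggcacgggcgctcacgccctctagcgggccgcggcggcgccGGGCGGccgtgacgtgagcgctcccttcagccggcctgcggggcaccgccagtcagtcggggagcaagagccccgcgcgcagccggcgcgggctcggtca

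The lists of siARID1A cells were longer. They held 59632 and 57354 peaks, against 50774 and 46225 in YTHDF1-KO cells, with no overlap between the conditions (58493 ± 1611 in siARID1A and 48500 ± 3217 in YTHDF1-KO cells, mean ± SD, n = 2 each, ratio 1.21). The covered length was 77.5 and 81.7 Mb in siARID1A cells, against 61.0 and 57.8 Mb in YTHDF1-KO cells, a ratio of 1.34. An exact two-sided permutation test gave p = 0.33 for both measures, the smallest p that 2 lists against 2 can give. The median peak width overlapped between the conditions, at 1088 and 1168 bp in siARID1A lists and 1055 and 1089 bp in YTHDF1-KO lists. In every list the highest signal of each peak was a whole multiple of 1 step of the library's scale (to within 0.01 steps, or 0.01% for tall peaks), the lowest peak reached 2 steps and the median peak 4 steps. The mitochondrial genome took 31.4% and 32.0% of the signal in siARID1A lists and 29.1% and 27.6% in YTHDF1-KO lists. The depth behind the lists is unknown.

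Most peaks of a list had no overlap in its replicate. A peak of a siARID1A list was overlapped by the other siARID1A list in 43.9% to 44.2% of cases and by a YTHDF1-KO list in 33.5% to 35.6%. A peak of a YTHDF1-KO list was overlapped by the other YTHDF1-KO list in 34.2% to 37.1% of cases, and by a siARID1A list in 41.2% to 45.4%. The YTHDF1-KO peaks were thus met more often by the longer siARID1A lists than by their own replicate.

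Regions of siARID1A cells alone outnumbered those of YTHDF1-KO cells alone by 2.66 times. There were 5318 regions of siARID1A only and 1998 of YTHDF1-KO only. All 4 lists held 9185 regions (7.45%), and 3 lists held 9469. The 4 patterns with 1 list of each condition, which follow no condition, held 2842, 2593, 3097 and 2736 regions, fewer than siARID1A only and more than YTHDF1-KO only. Most regions were in a single list, 47422 in 1 siARID1A list and 38568 in 1 YTHDF1-KO list. With each list cut to its 46225 peaks of highest total signal, 3798 regions were of siARID1A only and 2223 of YTHDF1-KO only. Each count needs both lists of a condition, and without YTHDF1-KO replicate 1 or 2 the order turned, with 8599 or 8526 regions of siARID1A only and 19502 or 23062 of YTHDF1-KO only. Without siARID1A replicate 1 or 2 there were 27989 or 30069 of siARID1A only and 3418 or 3558 of YTHDF1-KO only.

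**Figure D1:**
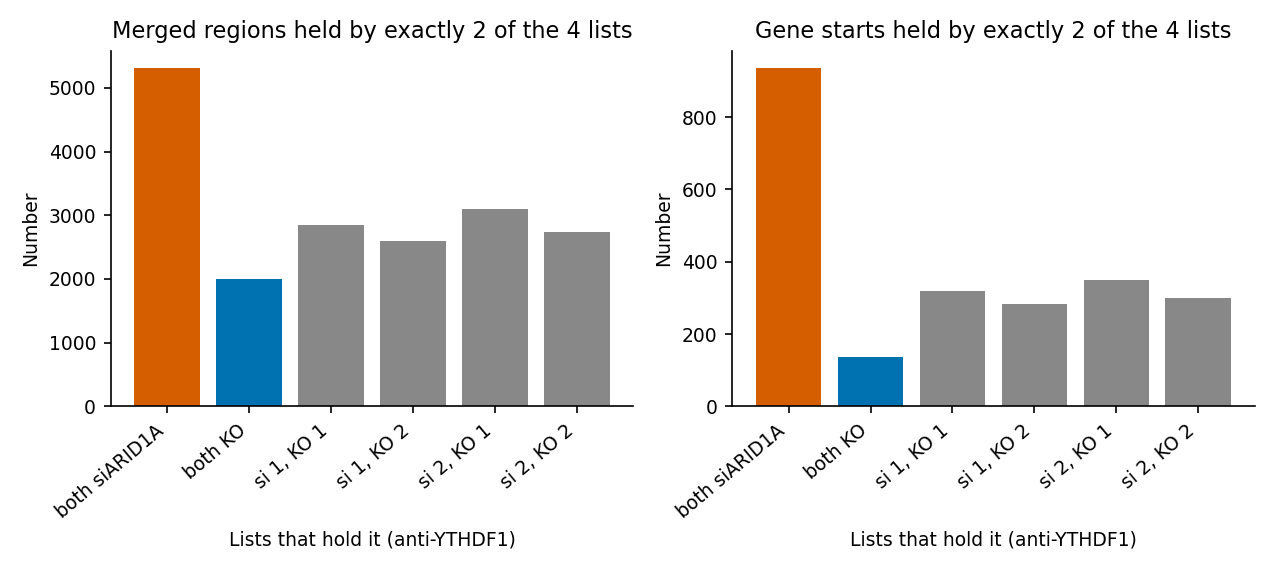
Number of merged regions (left) and of gene starts within 1 kb of a peak (right) held by exactly 2 of the 4 anti-YTHDF1 lists, by which 2 lists hold them; si stands for siARID1A, KO for YTHDF1-KO and the digit for the replicate. Regions of both siARID1A lists (5318) stand above each mixed pair (2593 to 3097) and those of both YTHDF1-KO lists (1998) below, and the same order holds for gene starts (937, 282 to 349, and 137).

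Regions of one condition only were of middling signal. The percentile of the authors' total signal within a list was averaged over the lists that held the region, and its median was 49.6 for siARID1A only (quartiles 35.7 and 65.3), 44.4 for YTHDF1-KO only (31.2 and 59.9), 45.9 for 1 list of each condition and 78.3 for all 4 lists (64.6 and 90.5). Over the 90th percentile stood 47 regions of siARID1A only (0.884%) and 12 of YTHDF1-KO only (0.601%), and 2388 of those in all 4 lists (26.0%). In siARID1A replicates 1 and 2 the median highest signal was 4 and 4 steps for siARID1A only, against 6 and 7 steps for regions of all 4 lists. In YTHDF1-KO replicates 1 and 2 it was 3 and 4 steps for YTHDF1-KO only, against 5 and 5 steps for regions of all 4 lists. The median width was 1629 bp for siARID1A only and 1566 bp for YTHDF1-KO only, near the 1584 bp of regions with 1 list of each, while regions of all 4 lists had 3570 bp. The nearest peak of the other condition lay a median of 2616 bp from a siARID1A-only region and 2108 bp from a YTHDF1-KO-only region. It lay within 10 kb of 79.5% of the siARID1A-only regions and of 81.9% of the YTHDF1-KO-only regions. The same distance was not computed for other regions or positions, so nothing is read from this nearness.

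**Figure D2:**
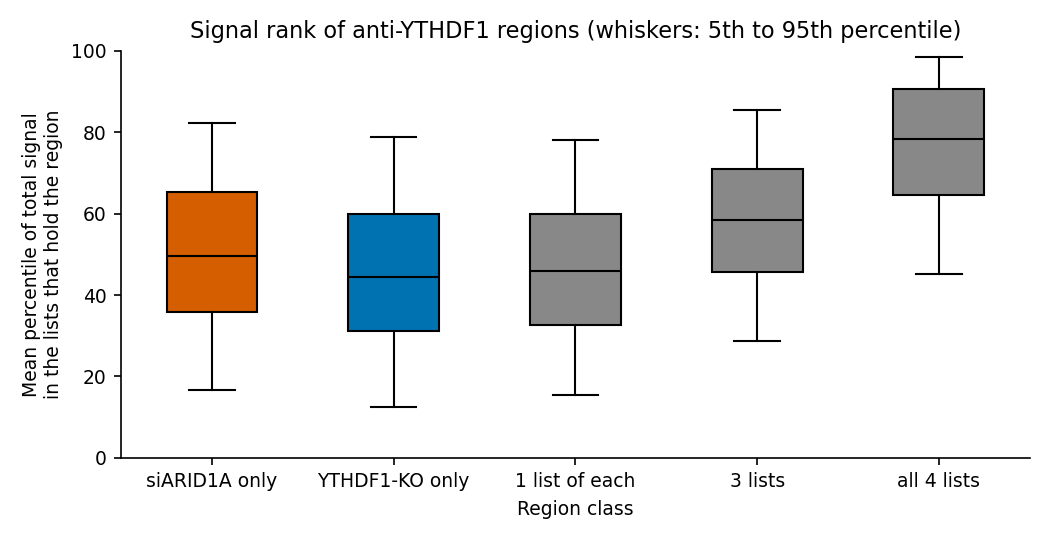
Mean percentile of the authors' total signal, within the lists that hold a region, by class of region; boxes span the quartiles with the median as a line, and whiskers run from the 5th to the 95th percentile of regions. The medians of siARID1A only (49.6), YTHDF1-KO only (44.4) and 1 list of each (45.9) lie close together, below that of all 4 lists (78.3); wider regions can collect more total signal, and the classes were set by membership.

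The strongest siARID1A-only region lay in SLC45A4 (chr8:141255173-141259270), at the 98.6 and 97.7 percentiles of the siARID1A lists. The next was at the start of FLYWCH1 (chr16:2911074-2915011, 97.7 and 96.8), a gene that encodes a zinc finger protein. A region outside genes (chr1:212483942-212486842, 97.6 and 96.9) lay 37563 bp from NENF, which encodes a secreted neurotrophic factor. A further region (chr12:113220570-113223412, 97.0 and 93.6) covered the neighbouring starts of DRC10 and TPCN1, and TPCN1 encodes an ion channel of endosomes and lysosomes. The 5th lay in FBXO46 (chr19:45720267-45724202, 93.8 and 96.6), which encodes an F-box protein. All 5 were also held by both WT anti-YTHDF1 lists and by all 4 anti-ARID1A lists of the siARID1A and YTHDF1-KO cells.

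Among YTHDF1-KO-only regions the strongest lay in KCNAB2 (chr1:6005850-6007808), which encodes a potassium channel beta subunit, at the 95.4 and 96.8 percentiles of the YTHDF1-KO lists. It was held by both WT anti-YTHDF1 lists and by both anti-ARID1A lists of each condition as well. The next lay in DOCK8 (chr9:320141-322467, 95.8 and 94.5), an exchange factor for small GTPases known from immune cells, and was held by 0 WT lists and 0 anti-ARID1A lists. A region in KCNK3 (chr2:26702301-26705502, 97.7 and 90.8), a potassium leak channel gene, was held by 1 WT list. The same region was held by 1 siARID1A and 2 YTHDF1-KO anti-ARID1A lists. A short region of 578 bp (chr10:130518759-130519336, 91.5 and 95.4) reached 18 and 25 steps, lay 319435 bp from the nearest gene, LOC124902561, and was held by 0 WT and 0 anti-ARID1A lists. The 5th lay 94474 bp from MRM1 (chr17:36729172-36733043, 93.8 and 91.8), which encodes a mitochondrial rRNA methyltransferase, and was held by 1 WT list. This 5th region was also held by 1 siARID1A and 2 YTHDF1-KO anti-ARID1A lists.

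The clearest difference of place between the directions was at gene starts. A region was at a gene start if it came within 1 kb of the RefSeq start of a protein-coding gene, which was known for 15812 of 19974 genes, and chromosome 8, which has none of these starts, was left out. At a start lay 825 of 5143 siARID1A-only regions (16.04%) and 123 of 1926 YTHDF1-KO-only regions (6.39%), against 10.6% of regions with 1 list of each, 31.2% of those in all 4 lists and 8.43% of all regions. Inside a gene but not at a start lay 49.6% of siARID1A-only and 56.3% of YTHDF1-KO-only regions, and outside genes 34.3% and 37.3%. The median distance to the nearest start was 18557 bp for siARID1A-only and 30883 bp for YTHDF1-KO-only regions. In lists of equal length the shares at a start were 18.7% for siARID1A only and 6.54% for YTHDF1-KO only. Regions are not replicates, and no test was made of these shares.

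The same difference was seen list by list. The siARID1A lists held 7196 and 7208 of the 15812 gene starts (45.5% and 45.6%), and the YTHDF1-KO lists held 5348 and 5182 (33.8% and 32.8%), without overlap (ratio 1.37, exact two-sided permutation test p = 0.33, the smallest possible). Of the peaks themselves, 12.3% and 12.7% lay at a start in siARID1A lists, against 10.7% and 11.3% in YTHDF1-KO lists (12.5 ± 0.259% in siARID1A and 11.03 ± 0.433% in YTHDF1-KO, mean ± SD, n = 2 each, exact permutation p = 0.33). Among the 25% of peaks with the highest total signal the shares were 24.4% and 24.6% in siARID1A lists and 18.6% and 19.6% in YTHDF1-KO lists. The siARID1A lists were also the longer ones. The WT anti-YTHDF1 lists had 12.4% and 13.04% of their peaks at a start, and they held 7108 and 5263 starts, the first near the siARID1A lists and the second between the YTHDF1-KO lists. The anti-ARID1A lists of the same cells also had a higher share of their peaks at a start in siARID1A (13.9% and 13.05%) than in YTHDF1-KO cells (11.1% and 10.5%), while the starts they held went the other way, 61.1% and 64.7% in siARID1A and 72.02% and 71.2% in YTHDF1-KO cells.

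By gene, 937 of 15812 starts (5.93%) had a peak in both siARID1A lists and neither YTHDF1-KO list, and 137 (0.866%) had the reverse. All 4 lists held 2783 starts (17.6%), no list held 5762, and the 4 mixed pairs held 320, 282, 349 and 300. Both siARID1A lists and 1 YTHDF1-KO list held 1714 starts, while both YTHDF1-KO lists and 1 siARID1A list held 391. In lists of equal length 781 starts were of siARID1A only and 153 of YTHDF1-KO only, and 741 and 123 of these were the same genes as with all peaks. Leaving out a list favours the condition left with 1 list, since that list alone then suffices for it. Without YTHDF1-KO replicate 1 or 2 the order of the 2 counts still held. There were then 1829 or 1759 starts of siARID1A only and 604 or 613 of YTHDF1-KO only. Without siARID1A replicate 1 or 2 there were 1860 or 1908 of siARID1A only and 326 or 339 of YTHDF1-KO only, an order that this removal favours. With windows of 3 kb, 678 of the 937 and 87 of the 137 kept their pattern. At least 1 WT anti-YTHDF1 list held 696 of the 937 (74.3%) and 85 of the 137 (62.0%), and both WT lists held 282 and 27. Over all 15812 starts, at least 1 WT list held 8182 (51.7%) and both held 4189. At least 1 WT list held 96.8% of starts held by all 4 lists and 13.7% of starts in no list. For starts with any other pattern the share was 63.2%, near that of YTHDF1-KO only. A start with a call need not lie in a region of one condition only, since a peak of the other condition can lie beyond 1 kb in the same merged region. Such a region lay within 1 kb of 791 of the 937 siARID1A-only starts (84.4%) and of 100 of the 137 YTHDF1-KO-only starts (73.0%).

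The genes of highest percentile with a start of siARID1A only are a mixed group. KCTD2, which encodes a partner of cullin ubiquitin ligases, stood at the 98.3 and 99.1 percentiles of the siARID1A lists. ORMDL3, a regulator of sphingolipid synthesis, stood at 98.3 and 94.5, and SSTR5, a somatostatin receptor gene, at 95.8 and 97.6. SPAST, which encodes the microtubule-severing enzyme spastin, stood at 94.2 and 94.0, and ZMYM2, a zinc finger transcription regulator gene, at 95.7 and 93.8. HBM, a gene of the alpha-globin cluster whose members resemble one another in sequence, stood at 98.0 and 89.8, and ANO7, an anoctamin gene, at 95.3 and 89.95. SPAST and ANO7 lie on chromosome 2. With windows of 3 kb SPAST, ZMYM2 and ANO7 kept the pattern and KCTD2, ORMDL3, SSTR5 and HBM did not, nor did FLYWCH1, DRC10 and TPCN1. Of the 10 genes, 7 had a siARID1A-only region within 1 kb of the start, while KCTD2, ORMDL3 and HBM lay in regions held by all 4 lists. SSTR5, among the 7, also had a region held by all 4 lists within 1 kb. Its percentiles need not be those of its siARID1A-only region, which was not among the 5 strongest of that class.

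Among YTHDF1-KO-only starts, NFKBID, which encodes an atypical I-kappa-B protein, was the strongest, at the 95.6 and 93.4 percentiles of the YTHDF1-KO lists. GUCA2A, the gene of the gut peptide guanylin, stood at 91.9 and 88.8. SIGLEC16 (93.7 and 86.9) and CEACAM1 (83.1 and 93.3) encode cell-surface proteins of multigene families on chromosome 19, where reads can be hard to place. PTPRM, a receptor tyrosine phosphatase gene, stood at 82.4 and 83.9, and STRIP2 at 77.0 and 94.3. The remaining 4 of the 10, KCNK3, LOC124902420, NUDT13 and THEM4, stood between 67.9 and 95.4. PTPRM and STRIP2 kept the pattern with windows of 3 kb, and the other 8 did not. Of the 10 genes, 8 had a peak in at least 1 WT anti-YTHDF1 list, THEM4 and PTPRM being the exceptions. A YTHDF1-KO-only region lay within 1 kb of the start in 4 of the 10, STRIP2, PTPRM, NUDT13 and THEM4, while NFKBID, SIGLEC16, CEACAM1 and LOC124902420 lay in regions held by all 4 lists and GUCA2A and KCNK3 in regions of 3 lists. Ranked by highest in place of total signal, the mean percentile over both lists was 57.2 in place of 90.4 for GUCA2A, 41.7 in place of 83.2 for PTPRM and 41.3 in place of 84.5 for LOC124902420.

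Of the 334 members of 19 gene lists that have a start, few followed either condition. Among SWI/SNF subunit genes, 2 of 23 were of siARID1A only, 1 of YTHDF1-KO only and 5 in all 4 lists. The first 2 were PBRM1, the polybromo subunit of the PBAF complex, at the 69.0 and 77.1 percentiles of the siARID1A lists, and ARID1A itself at 17.8 and 74.6. DPF3, a PHD-finger subunit gene, was of YTHDF1-KO only through weak peaks at 4.4 and 11.9. With windows of 3 kb PBRM1 kept its pattern, and ARID1A and DPF3 did not. Among m6A writers, readers and erasers 0 of 18 followed either condition and 7 were in all 4 lists, and among R-loop resolution genes the counts were 0 of 22 and 6. The 17 NRF2 target genes (8 in all 4 lists), 26 cell cycle genes (5) and 14 antigen presentation genes (3) likewise had 0 starts of either condition. These counts stand beside 5.93% and 0.866% of all starts, and nothing is read from them about a pathway.

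Some members of stress and immune lists were of siARID1A only, to be set beside 5.93% of all starts. Nothing is read from the counts about a pathway. AEN, a p53-induced nuclease gene, stood at 89.5 and 78.2 and TIGAR, a p53-induced regulator of glycolysis, at 58.6 and 92.2, 2 of 15 p53 targets. JUND, an AP-1 transcription factor gene, stood at 92.9 and 72.7, and with ATF3 made 2 of 16 genes of the AP-1 and ATF family. ISG15, an interferon-induced ubiquitin-like modifier, stood at 85.5 and 46.6 and was the single such gene of 17. ADAR, an RNA-editing enzyme gene (48.5 and 59.2), was 1 of 14 nucleic acid sensing genes, and PVR, a ligand of the receptor TIGIT (91.3 and 37.8), 1 of 13 immune checkpoint ligand genes. RAD50, of the complex that senses DNA double-strand breaks, stood at 44.8 and 78.8 and was 1 of 17 DNA damage response genes. CXCL3 was 1 of 19 cytokine and chemokine genes. TIGAR, PVR and RAD50 kept the pattern with windows of 3 kb, and AEN, JUND, ISG15 and ADAR did not. AEN lay in a region held by all 4 lists.

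Developmental and cell type genes gave similar small counts, to be set beside 5.93% of all starts for siARID1A only and 0.866% for YTHDF1-KO only. FOXA1, a pioneer transcription factor of lung epithelium, stood at 77.0 and 65.8 in siARID1A lists and was 1 of 14 lung epithelium genes. BMPR2, a BMP receptor gene on chromosome 2 (64.1 and 71.7), and BMPR1A made 2 of 23 genes of the TGF-beta and BMP pathway, 9 of which were in all 4 lists. H2AC11 and H2BC11 share 1 peak near their starts (86.8 and 52.98), and with H3C2 made 3 of 39 replication-dependent histone genes, which resemble one another in sequence. KLF1, an erythroid factor gene (22.1 and 78.0), was 1 of 9 haematopoietic marker genes and RBFOX3, a neuronal splicing factor gene (61.7 and 21.4), 1 of 13 neuronal marker genes, although all 4 lists had a peak within 1 kb of one or the other end of RBFOX3. TGFBI, an extracellular matrix gene, was of YTHDF1-KO only (29.6 and 84.5), 1 of 9 epithelial and mesenchymal genes. All of those given with percentiles kept the pattern with windows of 3 kb. FOXA1 and BMPR2 lay in regions of a single siARID1A list each, since the peaks of the 2 lists did not meet. As a check of the cell type, a peak within 1 kb of either end was found in all 4 lists for 2 of 6 epithelial, 1 of 6 haematopoietic and 2 of 6 neuronal marker genes, RBFOX3 among the last, and in no list for 0, 1 and 3, so the lists do not tell these cell types apart.

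The perturbed genes themselves were followed in every list. The start of YTHDF1 (chr20:63195429-63216131, minus strand) carried a peak in all 4 lists, at the 77.7 and 68.5 percentiles in siARID1A lists and at 36.4 and 69.5 in YTHDF1-KO lists. A peak at the gene checks neither the knockout nor its genotype. The start of ARID1A (chr1:26696015-26782104, plus strand) carried a peak in both siARID1A lists, at 17.8 and 74.6, and in neither YTHDF1-KO list. It carried one in 1 of the 2 WT anti-YTHDF1 lists, at 61.3, and in all 4 anti-ARID1A lists of siARID1A and YTHDF1-KO cells, and with windows of 3 kb the pattern was lost.

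The promoters of siARID1A-only starts held more CpG than promoters as a whole, and those of YTHDF1-KO-only starts about as much. Over the window from 250 bases before to 50 after the start, the median GC content was 66.7% for siARID1A-only starts, 64.7% for YTHDF1-KO-only starts, 66.7% for starts in all 4 lists, 54.7% for starts in no list and 62.7% for all. The median CpG count was 28 for siARID1A only and 22 for YTHDF1-KO only, against 26 in all 4 lists, 10 in no list and 22 over all starts. The GC box GGGCGG, searched on both strands, was found in 73.5% of siARID1A-only and 66.4% of YTHDF1-KO-only promoters, against 76.8% of those in all 4 lists, 38.4% of those in no list and 58.5% of all promoters. The CCAAT box was found in 36.9% and 27.7%, against 36.3% of all promoters, and TATAAA in 5.76% and 7.30%, against 9.64%. The AP-1 motif was searched as TGACTCA and its reverse complement TGAGTCA. It was found in 2.35% of siARID1A-only and 5.11% of YTHDF1-KO-only promoters, 22 and 7 promoters. Promoters in all 4 lists gave 3.41%, those in no list 4.53% and all promoters 3.67%. A match is a run of letters and not a site of binding.

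By chromosome, the largest difference in the share of peaks was on chromosome 2. It carried 7.83% and 7.69% of the peaks of siARID1A lists, against 5.28% and 5.10% of those of YTHDF1-KO lists (7.76 ± 0.0983% in siARID1A and 5.19 ± 0.125% in YTHDF1-KO, mean ± SD, n = 2 each, ratio 1.49). The exact two-sided permutation test gave p = 0.33, the smallest possible, and 0.697 after Benjamini-Hochberg adjustment over the 23 chromosomes. The ratio was 1.53 for covered length and 1.57 for total signal, and for the other 22 chromosomes the ratio of peak shares lay between 0.888 and 1.19. Ratios of total signal on the others ran from 0.715 on chromosome 5, with 4.81% and 4.68% of the signal in siARID1A lists, against 6.57% and 6.70% in YTHDF1-KO lists, and 0.784 on X to 1.19 on chromosome 21. Shares of 1 list add up to a whole, so the ratios of the chromosomes are not independent of one another. How much of the lower shares elsewhere follows from this was not tested. Without overlap, 2 of 23 chromosomes were higher in siARID1A (8.7%), chromosome 2 and chromosome 21, and 9 of 23 were lower (39.1%). Chromosome 21 carried 1.17% and 1.07% in siARID1A lists, against 0.924% and 0.958% in YTHDF1-KO lists. WT anti-YTHDF1 lists had 8.03% and 7.59% of their peaks on chromosome 2, near siARID1A.

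**Figure D3:**
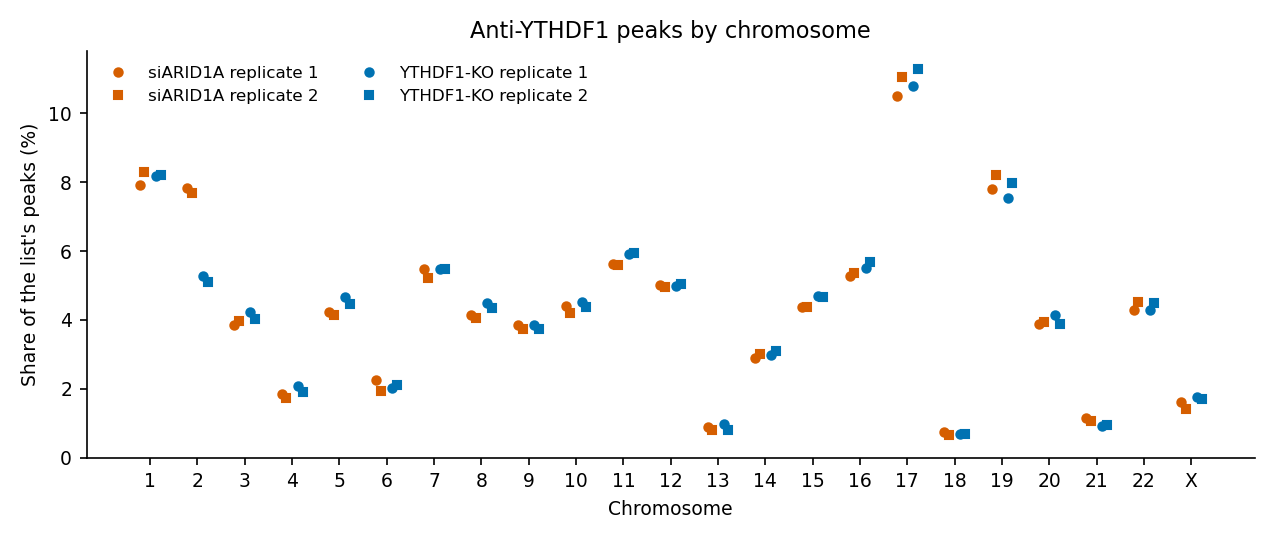
Share of each anti-YTHDF1 list's peaks on each chromosome, in percent; orange marks siARID1A and blue YTHDF1-KO lists, with circles for replicate 1 and squares for replicate 2. On chromosome 2 both siARID1A lists (7.83% and 7.69%) stand above both YTHDF1-KO lists (5.28% and 5.10%), and most other chromosomes show the 4 lists close together.

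The difference was present all along the part of chromosome 2 that was compared. In bins of 10 Mb with a mean share of at least 0.05% of peaks, all 24 bins of chromosome 2 that passed (the bin from 140 to 150 Mb did not) had higher shares in both siARID1A lists than in either YTHDF1-KO list, with a median log2 ratio of 0.64 and a range of 0.36 to 0.93. Over all 272 bins 48 were higher in this way (17.6%) and 68 lower (25%), and outside chromosome 2 these were 24 (9.68%) and 68 (27.4%) of 248, with a median of -0.06. Of the 6 bins of chromosome 19, the first 2 were higher, with 1.77% and 1.81% of peaks in siARID1A lists, against 1.39% and 1.42% in YTHDF1-KO lists, in the first 10 Mb (log2 ratio 0.35) and 0.961% and 1.08%, against 0.796% and 0.820%, in the next (0.34). The other 4 bins had ratios of -0.03 to -0.12. The anti-ARID1A lists of the same cells also had higher shares in siARID1A in 24 of 24 bins of chromosome 2, at a median log2 ratio of 0.39, and a ratio of 1.33 for the chromosome. The difference was present with both antibodies. With anti-ARID1A, chromosome 19 differed more, with a ratio of 1.46, 6 of 6 bins higher and a median of 0.49, and over all 272 bins 83 were higher.

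**Figure D4:**
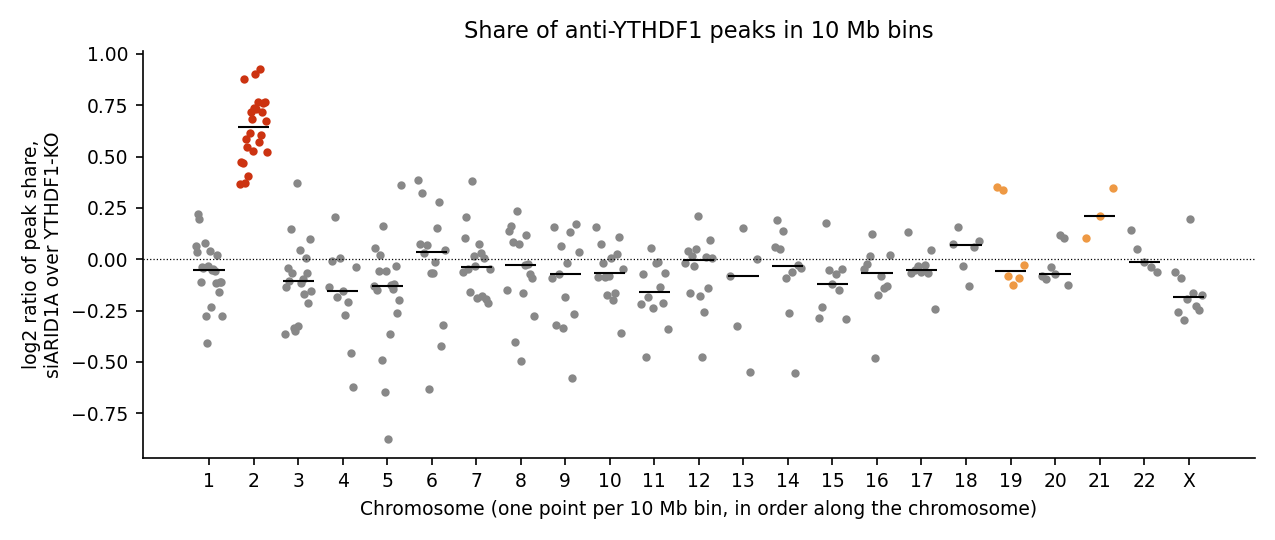
Log2 ratio of the mean share of anti-YTHDF1 peaks, siARID1A over YTHDF1-KO, in bins of 10 Mb; each point is a bin, points run along each chromosome and bars mark the median of a chromosome. The 24 bins of chromosome 2 (red) lie between 0.36 and 0.93, and chromosomes 19 and 21 are marked in light orange, with the first 2 bins of chromosome 19 at 0.35 and 0.34.

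Chromosome 2 also weighed on the regions of one condition. It held 568 siARID1A-only and 68 YTHDF1-KO-only regions, a ratio of 8.35, against ratios of 1.92 to 4.00 on the other chromosomes (median 2.43). In lists of equal length the counts on chromosome 2 were 429 and 73, a ratio of 5.88, against 1.57 over all others. Without chromosome 2, 4750 siARID1A-only and 1930 YTHDF1-KO-only regions remained, a ratio of 2.46, so most of the excess of siARID1A-only regions lay elsewhere. By gene, 108 siARID1A-only and 4 YTHDF1-KO-only starts were among the 1108 on chromosome 2, BMPR2, SPAST and ANO7 among the 108 and KCNK3 among the 4. Over all 15812 starts the counts were 937 (5.93%) and 137 (0.866%).

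Lists that the membership rule did not use were laid over the regions. The anti-ARID1A lists of siARID1A cells held 61.3% and 69.9% of siARID1A-only regions and 38.7% and 43.9% of YTHDF1-KO-only regions. In YTHDF1-KO cells the anti-ARID1A lists held 84.3% and 82.0% of siARID1A-only regions and 71.6% and 70.8% of YTHDF1-KO-only regions. In both cell conditions siARID1A-only regions were thus held more often, also where the cells were those in whose anti-YTHDF1 lists the regions were absent. Regions with 1 list of each condition lay between, at 47.9% and 55.1% in siARID1A cells and 76.8% and 74.5% in YTHDF1-KO cells, and regions of all 4 lists at 92.8% to 98.7%. The 2 conditions' anti-ARID1A lists differ in length (71271 and 79193 peaks in siARID1A, 99861 and 106882 in YTHDF1-KO). The siARID1A-only regions also lay at gene starts more often than YTHDF1-KO-only regions (16.04% against 6.39%). Their median percentile was higher too (49.6 against 44.4), and regions matched for place and signal were not compared. Both siARID1A and neither YTHDF1-KO anti-ARID1A list held 0.432% of siARID1A-only regions, against 0.319% of those with 1 list of each, and the opposite pattern of anti-ARID1A lists was found at 7.73% of siARID1A-only regions. Both YTHDF1-KO and neither siARID1A anti-ARID1A list held 15.4% of YTHDF1-KO-only regions, against 11.4% of those with 1 list of each.

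WT anti-YTHDF1 lists gave the same order. They held 50.5% and 29.6% of siARID1A-only, 39.7% and 21.2% of YTHDF1-KO-only, 43.0% and 24.1% of 1-of-each and 92.5% and 78.9% of all-4 regions, where the second WT list is the shorter one, with 40562 peaks against 57764. Neither WT list held 39.5% of siARID1A-only and 51.0% of YTHDF1-KO-only regions. On chromosome 2 alone, the YTHDF1-KO anti-ARID1A lists held 73.4% and 72.4% of siARID1A-only regions, less than their 85.6% and 83.1% elsewhere, while those of siARID1A cells held 62.3% and 70.8% there and 61.2% and 69.8% elsewhere. These shares are over regions, which are not replicates, and were not tested.

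**Figure D5:**
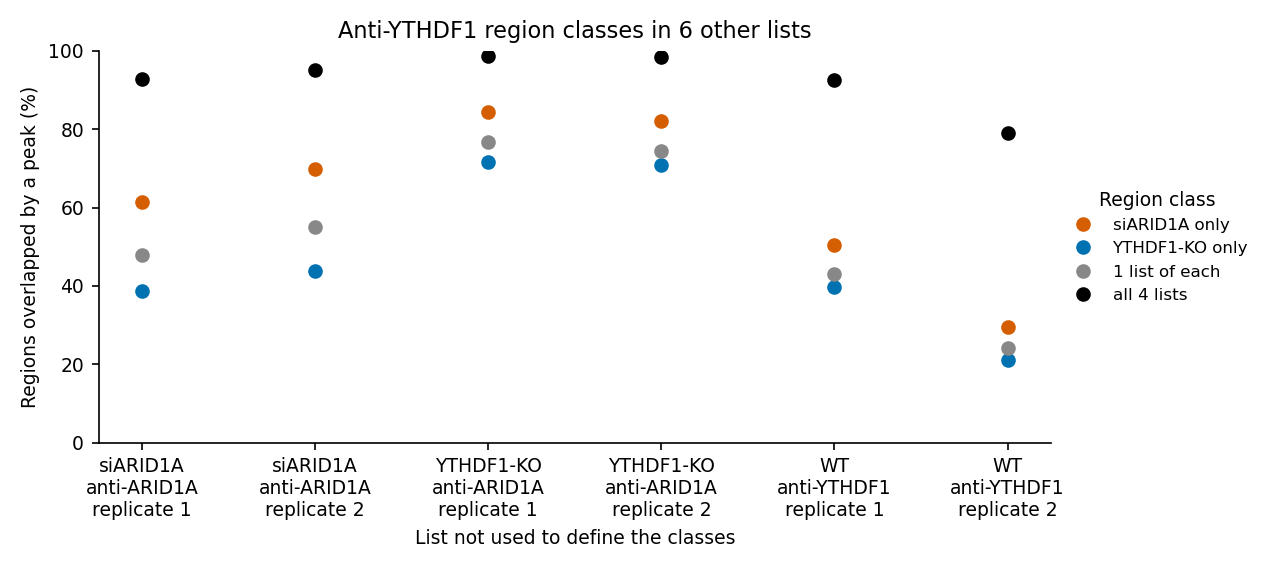
Share of the regions of each class overlapped by a peak in 6 lists that did not define the classes, in percent; columns are the anti-ARID1A lists of siARID1A and YTHDF1-KO cells and the WT anti-YTHDF1 lists. In each of the 6 lists siARID1A-only regions (29.6% to 84.3%) stand above YTHDF1-KO-only regions (21.2% to 71.6%), with regions of 1 list of each between them and regions of all 4 lists (78.9% to 98.7%) on top.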

How the data were processed

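The deposited peak lists hold 1 line per peak with a position, the authors' total signal, their highest signal and its place, and each sample has its own list. The submitters' processing notes name SEACR 1.3, a peak caller, beside Bowtie2 2.4.2, fastp 0.23.2, deepTools 3.5.2, bedtools 2.30.0 and SAMtools 1.9, and the builds hg38 and GRCh38. Not given in the sources used here are the settings, the signal's scale and any use of IgG, and signal was therefore ranked within a list and not compared between lists as a level. Sequencing depth is unknown, which leaves counting intervals out of reach.

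Peaks of chromosomes 1 to 22 and X were merged without bridging gaps, and held regions were found by an overlap of 1 bp, with Python 3.11.15, numpy 2.4.6, pandas 2.3.3, scipy 1.17.1 and matplotlib 3.10.9. Code was tested on simulated data. Gene starts came from the RefSeq promoter table of GRCh38.p14, which gave a start for 15812 of 19974 protein-coding genes and for 334 of 437 members of the gene lists; the other genes and chromosome 8 were not analysed here for starts, except in an alternative with either end of all genes. A peak can serve genes that overlap or adjoin. Named were, in each direction, at most 15 list members by mean percentile of total signal, the 10 genes and the 5 regions of highest mean percentile, and YTHDF1 and ARID1A; ATF3, CXCL3, BMPR1A and H3C2 are named from the counts. Members, lists and rules were chosen with earlier results of these data known. The exact permutation tests are two-sided and over lists. The alternatives were equal list length, a stricter threshold (the lowest 25% of peaks by highest signal left out), each list left out, 50% cover, gaps of 500 bp bridged, windows of 3 kb, covered length in place of peak number, a replicate block, and, added after the data were seen, no chromosome 2, either gene end, and chromosome shares and places in lists of equal length.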

Additional observations from a re-analysis of the deposited data

Results flagged for a closer look

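Peaks outside chromosomes 1 to 22 and X entered no comparison, and every list held them: 6.23% and 5.72% of the peaks in siARID1A lists and 6.41% and 6.65% in YTHDF1-KO lists. Nearly all lay on alternate or unplaced sequences (3910 and 3451 peaks in siARID1A lists, 3450 and 3271 in YTHDF1-KO lists), where reads can also match the main chromosomes. An alternate sequence of chromosome 17 held the most, with 250 and 224 peaks in siARID1A lists and 221 and 210 in YTHDF1-KO lists. Each list had 1 mitochondrial peak. No IgG list was used here to set a background for them.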

How the results depend on the processing

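List length and the unknown depth limit these results. Leaving out each list in turn gave 8526 to 30069 siARID1A-only and 3418 to 23062 YTHDF1-KO-only regions, and 1759 to 1908 and 326 to 613 gene starts, since a single list then stands for a condition; the order of the region counts turned without either YTHDF1-KO list. With either end of all genes in place of starts, an alternative chosen after seeing the data, 1058 genes were of siARID1A only and 206 of YTHDF1-KO only. The 4 counts stayed within 1.5 times under equal list length, the stricter threshold (4222 and 1370 regions, 937 and 96 starts, of which 774 of the 937 were the same genes), and no chromosome 2 (829 and 133 starts). For regions this also held with 50% cover (6110 and 1987) and bridged gaps (4682 and 1918), and for starts with windows of 3 kb (875 and 166). Without 1 list, the ratio of siARID1A over YTHDF1-KO was 1.15 to 1.27 for peak number, 1.304 to 1.38 for covered length and 1.47 to 1.52 for the chromosome 2 share. Ranking peaks by highest signal moved 16 of 37 named genes by more than the spread between lists, by -43.2 to 21.4 percentile points.

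The replicate numbers are not stated to pair the lists. Across the 9185 regions of all 4 lists, the differences between replicates 1 and 2 in percentile had r = 0.02 between the conditions. With a replicate block the ratios were 1.21 for peak number, 1.34 for covered length and 1.49 for the chromosome 2 share, each with an exact sign-flip p of 0.5, the smallest that 2 pairs allow.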
